A study of Homo sapiens with 8 samples.

Results

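The genes described here are 10 markers of the epithelial and mesenchymal states, read in 2 human pancreatic cancer cell lines. They are CDH1, EPCAM, ESRP1 and ESRP2 of the epithelial side, and CDH2, VIM, FN1, ZEB1, ZEB2 and SNAI2 of the mesenchymal side. They were taken by gene name from the table of expression values, 10 of its 62649 genes. The rule goes by name and uses no measured value, but the names were chosen with earlier results of these data known. AsPC-1 and PANC-1, both labelled wild type, were grown for 3 days as spheroids in a medium thickened with methylcellulose. They were then treated for 24 h with the vehicle, with 10 µM roseoflavin, with 1 nM trametinib or with both compounds. Roseoflavin is an analog of riboflavin, and trametinib is an inhibitor of the kinases MEK1 and MEK2. Each line and treatment was measured once by sequencing of polyadenylated RNA, which gave 8 libraries and 1 per group. Each line is a single established culture, so it stands for itself and not for a class of tumours.

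Epithelial cells hold to each other through E-cadherin junctions, and they can give these up for a motile, mesenchymal form. The transition is driven by repressors of the ZEB and Snail families, which bind E-box sequences in epithelial genes such as CDH1. ZEB1 and ZEB2 and the microRNAs of the miR-200 family repress each other. This double negative loop is a textbook switch between the states. ESRP1 and ESRP2 are RNA-binding proteins that set the epithelial pattern of alternative splicing, and ZEB1 is known to repress ESRP1. In pancreatic cancer lines these genes are used to place a line between the epithelial and mesenchymal ends.

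All values are TPM, a unit of transcript abundance which scales each gene by its length and each library to the same total. TPM keep no record of the number of reads, so the depth is unknown and no interval for counting error can be given. Mitochondrially encoded genes made up 41.2% to 44.1% of each AsPC-1 library and 22.8% to 25.6% of each PANC-1 library, which lowers every other gene more in AsPC-1. The keratins and SOX9, 5 markers of ductal or carcinoma epithelium, were at 1 TPM or more in every library of both lines. They summed to 6160 to 7033 TPM in AsPC-1 and 2846 to 3166 TPM in PANC-1. SOX9 alone ran the other way, at 42.4 to 51.4 TPM in AsPC-1 and 147 to 165 TPM in PANC-1. The 4 acinar, 3 islet and 3 endothelial markers stayed below 1 TPM in all libraries. Of 4 leukocyte markers, the defining genes PTPRC and CD3E reached at most 0.019 TPM and 0 TPM, while CD68 was at 108 to 139 TPM in both lines and LYZ at 1856 to 1970 TPM in AsPC-1. Of 6 fibroblast markers, LUM was at 103 to 146 TPM in AsPC-1, COL1A1 at 98.9 to 107 TPM and COL3A1 at 1.69 to 1.98 TPM in PANC-1, and the others stayed below 1 TPM. LYZ, LUM and COL1A1 thus went with the line, and their part in the differences between the lines was not tested. In bulk RNA of this kind, fewer cells with a transcript and less of it per cell cannot be told apart.

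The 10 genes placed the lines far apart. AsPC-1 had high EPCAM, CDH1 and ESRP1 and no listed CDH2, while PANC-1 had little CDH1 and ESRP1 and 4.4 times the VIM of AsPC-1. Each line also carried transcripts of the opposite side. AsPC-1 had abundant VIM RNA together with ZEB1 and SNAI2, and PANC-1 kept ESRP2, EPCAM and CDH1. For each of the 10 genes the 4 libraries of one line did not overlap the 4 of the other, which held for 79.2% of all tested genes too. No gene of any kind passed the threshold for either compound.

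**Figure D1:**
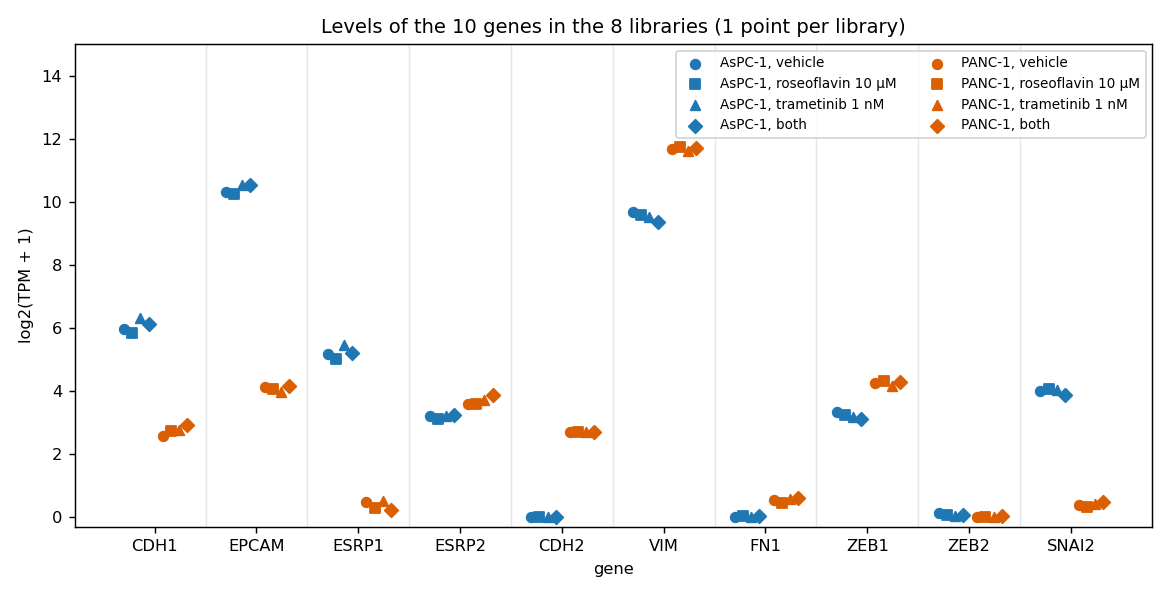
Level of each of the 10 genes in each of the 8 libraries, as log2(TPM + 1), with 1 point per library, the line as colour and the treatment as shape. The lines separate in CDH1, EPCAM, ESRP1, CDH2, VIM and SNAI2 by far more than the 4 treatments within a line do, while ZEB2 lies near 0 throughout.

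The repressors come first. ZEB1, a zinc finger repressor of epithelial genes, lies on chr10:31318495-31529814 on the forward strand of GRCh38. It was at 9.06 TPM with vehicle, 8.49 with roseoflavin, 8.05 with trametinib and 7.67 with both in AsPC-1. In PANC-1 the values were 18.3, 18.8, 16.9 and 18.4 TPM in the same order. ZEB1 was thus present in both lines and 2.18-fold higher in PANC-1 by the ratio of the means. On the log2(TPM + 1) scale the difference, PANC-1 minus AsPC-1, was 1.04 (SE 0.0494, limma adjusted p = 1.84e-06). ZEB2, its paralog with the same kind of target, was at 0.029 to 0.094 TPM in AsPC-1 and 0.008 to 0.023 TPM in PANC-1. Both lines therefore had 1 of the 2 ZEB genes at a level above 1 TPM.

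The microRNAs that target ZEB1 are shown because RNA of their genes was listed above 0 in AsPC-1 alone. These genes were added after values had been seen. The 5 mature sequences follow 5′ to 3′ from RefSeq, on GRCh38.p14, with the seed, bases 2 to 8, in capitals. They fall into a pair and a trio that differ at 1 base of the seed.
hsa-miR-141-3p: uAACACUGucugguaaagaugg
hsa-miR-200a-3p: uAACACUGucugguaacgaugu
hsa-miR-200b-3p: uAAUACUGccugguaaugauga
hsa-miR-200c-3p: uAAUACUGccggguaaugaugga
hsa-miR-429: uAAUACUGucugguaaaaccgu
The complement of the first seed is CAGTGTT and that of the second CAGTATT. The 3′ untranslated region of ZEB1, 2549 bases long in the GENCODE transcript read here, held CAGTATT 6 times and CAGTGTT 3 times on the transcribed strand. The 6 sites of the trio and 3 of the pair are shown in order along the transcript, with the match to the seed in capitals.
site 1: gttttatcttatCAGTATTatc
site 2: ctaaatccgcttCAGTATTtta
site 3: aatcatcagaatCAGTGTTtgt
site 4: agtgccatttctCAGTATTttc
site 5: atttttacctatCAGTATTatt
site 6: cttcaaacctggCAGTATTaat
site 7: gatttgatttaaCAGTGTTatg
site 8: aacttctataaaCAGTGTTggg
site 9: tttcatcattatCAGTATTttc
That is 3.53 matches per kb, against a mean of 0.253 per kb over 19128 annotated 3′ untranslated regions. Of the 4335 regions at least as long, with ZEB1 itself counted among them, 0.0461% had as many matches or more in the same length. ZEB2 also held 9 matches, in 5370 bases. FN1 and ESRP1 held 2 each and SNAI2 held 1, and no match was found in CDH1, EPCAM, ESRP2, CDH2 or VIM. A match is a description of the letters and not a measured site.

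The values of the miR-200 loci in AsPC-1 varied among treatments. MIR429 was at 175, 82.5, 133 and 98.0 TPM there with vehicle, roseoflavin, trametinib and both. MIR200B was at 48.9, 25.6, 33.3 and 27 TPM and MIR200A at 48.3, 18.4, 23 and 32.1 TPM in the same order. These 3 hairpins lie together on the forward strand of chromosome 1, from base 1167104 to base 1169087 of GRCh38. The other cluster is on chromosome 12, inside the host transcript MIR200CHG. MIR141 was at 18.7, 20.9, 24.1 and 25.9 TPM in AsPC-1. MIR200C was listed at 1.45 and 1.58 TPM with vehicle and with both, and at 0 with each compound alone. MIR200CHG itself was at 11.8, 11, 9.73 and 13.3 TPM. All 6 were listed at 0 in all 4 PANC-1 libraries. They were added for this pattern, so the count is no separate result, and the share of all genes with it is not given. In AsPC-1 the 3 chromosome 1 hairpins were highest with vehicle, but each spans only 83 to 95 bases, so their TPM can rest on few reads. Libraries of polyadenylated RNA read precursors and host transcripts, and the mature microRNAs were not measured.

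The start of MIR200CHG is shown because its transcript was listed at 0 where ZEB1 was higher. The window runs from 250 bases before to 50 after the start, chr12:6962995-6963294 on the forward strand of GRCh38.p14, as RefSeq gives it. The E-box bound by ZEB and Snail factors, CACCTG or its reverse complement CAGGTG, is in capitals.
MIR200CHG: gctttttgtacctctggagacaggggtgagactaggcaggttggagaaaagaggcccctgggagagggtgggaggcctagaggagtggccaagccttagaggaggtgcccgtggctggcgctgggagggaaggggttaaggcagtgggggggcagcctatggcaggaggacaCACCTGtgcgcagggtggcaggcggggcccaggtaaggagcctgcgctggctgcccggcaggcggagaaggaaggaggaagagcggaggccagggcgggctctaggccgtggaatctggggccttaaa
It held 1 such E-box, at position -78 from the start. At least 1 was found in 20.6% of 35116 promoter windows of this length. Of 7 windows at ZEB1 starts, 2 held at least 1 such E-box, and the windows for CDH2, FN1, VIM and ZEB2 held none. CDH1, EPCAM, ESRP1, ESRP2 and SNAI2 had no entry in the table used.

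SNAI2, known as SLUG, is a Snail-family repressor of CDH1, encoded at chr8:48917604-48921740 on the reverse strand. Its level ran against the mesenchymal side. AsPC-1 had 15, 15.7, 15.6 and 13.6 TPM with vehicle, roseoflavin, trametinib and both, and PANC-1 had 0.305, 0.252, 0.35 and 0.406 TPM. The difference was -3.59 (SE 0.0714, limma adjusted p = 3.75e-08), a 45.6-fold ratio of means in favour of AsPC-1. Genes were tested if they reached 1 TPM in no fewer than 2 libraries. SNAI2 did so through AsPC-1 alone, so it had to differ and its p adds nothing. SNAI1, its paralog, had the opposite pattern with 0.406 to 0.896 TPM in AsPC-1 and 23.7 to 29.5 TPM in PANC-1. SNAI2 therefore made 94.6% to 97.4% of the TPM of both genes in AsPC-1 and 0.848% to 1.66% in PANC-1. Their sum was 14.1 to 16.5 TPM in AsPC-1 and 24.1 to 29.7 TPM in PANC-1. The lines differed more in which Snail gene they expressed than in the sum.

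Among the targets of these repressors, CDH1 encodes E-cadherin, the adhesion protein of epithelial junctions, at chr16:68737225-68835548. AsPC-1 had 61.9, 56.1, 78.7 and 69.1 TPM with vehicle, roseoflavin, trametinib and both. PANC-1 had 5.02, 5.62, 5.79 and 6.56 TPM. The lowest AsPC-1 library was thus well above the highest PANC-1 library, and the difference was -3.32 (SE 0.0749, limma adjusted p = 6.36e-08). CDH2, which encodes N-cadherin and often replaces E-cadherin in mesenchymal cells, lies at chr18:27950966-28177446. All 4 AsPC-1 libraries listed it at 0. In PANC-1 it was at 5.56, 5.48, 5.55 and 5.57 TPM. The highest of these was 1.02 times the lowest, a range that only 0.362% of genes in PANC-1 matched or undercut. CDH2 passed the test between the lines (limma adjusted p = 6.90e-08), but it was tested only because of its PANC-1 libraries, so it had to differ. No fold is given against a line at 0.

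In PANC-1 the 2 cadherins were near balance. CDH1 made 47.4% of their summed TPM with vehicle, 50.7% with roseoflavin, 51.0% with trametinib and 54.1% with both. CDH1 was the lower of the 2 with vehicle and the higher in the other 3 libraries, so no order is given for them. A cadherin outside the 10 was far higher in AsPC-1 than either. CDH17, an intestinal cadherin from the list of cadherin partners that was named after its value was seen, was at 870 to 1009 TPM in AsPC-1 and 0.333 to 0.832 TPM in PANC-1.

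EPCAM, the epithelial cell adhesion molecule, showed the largest difference of the 8 genes tested on the log2(TPM + 1) scale. It is encoded at chr2:47345158-47387601. AsPC-1 had 1256, 1224, 1485 and 1464 TPM with vehicle, roseoflavin, trametinib and both, which made it the highest of the 10 genes there. PANC-1 had 16.5, 15.8, 14.5 and 16.8 TPM, the third highest of the 10. The difference was -6.33 (SE 0.0767, limma adjusted p = 5.29e-09), and the ratio of means was 85.4. Its first place depends on the pseudocount: with 0.1 the difference was -6.40 for EPCAM and -6.49 for ESRP1. CDH1 was 4.59% to 5.30% of the EPCAM level in AsPC-1 and 30.4% to 39.8% in PANC-1, so EPCAM differed between the lines more than CDH1 did.

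The splicing regulators ESRP1 and ESRP2 did not go together. ESRP1 lies at chr8:94641074-94707466. It was at 35.0, 31.4, 42.7 and 35.9 TPM in AsPC-1 with vehicle, roseoflavin, trametinib and both, and at 0.411, 0.234, 0.441 and 0.182 TPM in PANC-1. The difference was -4.82 (SE 0.0679, limma adjusted p = 9.09e-09), with a ratio of means of 114. ESRP1 was tested only because of its AsPC-1 libraries, so it had to differ. The PANC-1 values are so low that their spread among treatments can be that of a few reads. ESRP2, at chr16:68229111-68238102, was at 8.32, 7.75, 8.28 and 8.5 TPM in AsPC-1 and at 11, 11.2, 12.1 and 13.8 TPM in PANC-1. It was higher in PANC-1 by 0.49 (SE 0.0602, limma adjusted p = 2.42e-04). This direction depends on the scaling: the difference was 0.14 (adjusted p = 0.0536) when mitochondrially encoded genes were left out and -0.04 (adjusted p = 0.546) after quantile normalization. ESRP1 made 80.2% to 83.7% of the summed ESRP level in AsPC-1 and 1.31% to 3.61% in PANC-1. PANC-1 kept a sum of 11.4 to 13.9 TPM, nearly all of it ESRP2, beside 39.1 to 51.0 TPM in AsPC-1.

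Of the mesenchymal products, VIM encodes vimentin, an intermediate filament protein, at chr10:17228259-17237593. It was at 816, 765, 732 and 660 TPM in AsPC-1 with vehicle, roseoflavin, trametinib and both. PANC-1 had 3232, 3391, 3132 and 3325 TPM. Vimentin RNA was the second highest of the 10 genes in AsPC-1 and the highest in PANC-1. The difference was 2.14 (SE 0.0586, limma adjusted p = 1.44e-07), or 4.4-fold in the means. FN1, which encodes the matrix protein fibronectin at chr2:215360440-215436172, was at 0.006 to 0.026 TPM in AsPC-1 and at 0.453, 0.367, 0.483 and 0.533 TPM in PANC-1. FN1 and ZEB2 did not reach 1 TPM in any library and were not tested. PANC-1 thus had abundant vimentin RNA without fibronectin RNA above 1 TPM.

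Ratios of opposing genes within a library are free of the library's total, and so of its share of mitochondrial RNA. EPCAM was 1.54 to 2.22 times VIM in AsPC-1, while VIM was 196 to 216 times EPCAM in PANC-1. ESRP1 was 3.70 to 5.30 times ZEB1 in AsPC-1, and ZEB1 was 38.4 to 101 times ESRP1 in PANC-1. CDH1 was 6.61 to 9.78 times ZEB1 in AsPC-1 and 0.274 to 0.357 times ZEB1 in PANC-1. ESRP2 was 0.912 to 1.11 times ZEB1 in AsPC-1 and 0.596 to 0.748 times in PANC-1, the closest of these 4 ratios. For all 4 ratios the lines did not overlap, and these ratios are given as description, without a test. For EPCAM to VIM, ESRP1 to ZEB1 and CDH1 to ZEB1 this was fixed in advance. Each gene of these pairs already separated the lines, and the genes of a pair went opposite ways.

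**Figure D2:**
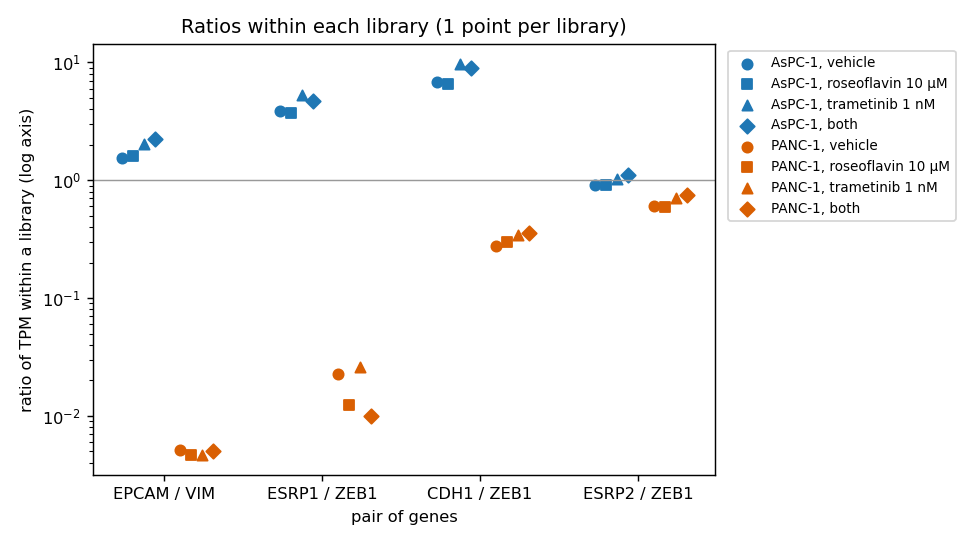
Ratio of the TPM of an epithelial gene to that of a mesenchymal gene within each library, on a log axis, with 1 point per library, the line as colour and the treatment as shape. EPCAM to VIM, ESRP1 to ZEB1 and CDH1 to ZEB1 lie above 1 in AsPC-1 and below 1 in PANC-1, and ESRP2 to ZEB1 lies near 1 in AsPC-1 and at 0.596 to 0.748 in PANC-1.

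The order of levels, which TPM allow because they are per length, was as follows. AsPC-1 ran from EPCAM through VIM, CDH1, ESRP1 and SNAI2 to ESRP2 and ZEB1, and then to ZEB2, FN1 and CDH2. ESRP2 and ZEB1 overlapped over the 4 libraries, and the other neighbours did not. PANC-1 ran from VIM through ZEB1, EPCAM and ESRP2 to CDH1 and CDH2, and then to FN1, SNAI2, ESRP1 and ZEB2. There CDH1 overlapped CDH2, FN1 overlapped SNAI2, and SNAI2 overlapped ESRP1.

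The test between the lines used all 8 libraries, with the line and both compounds as terms, and log2(TPM + 1) of the 19122 genes that reached 1 TPM in no fewer than 2 libraries. It called 83.8% of these genes at an adjusted p under 0.05, 62.3% as higher and 21.5% as lower in PANC-1. Against that background, calls for all 8 tested members, 4 higher and 4 lower, say little by their number. ESRP1 and SNAI2 passed the filter only through AsPC-1 and CDH2 only through PANC-1, so these 3 had to differ. The 4 libraries of a line are 4 treatments of 1 culture, and nothing in the labels says that they came from separate cultures. The p-values measure the spread of these libraries only. The sizes are more telling, since the median of all genes was 0.55. It became 0.25 when mitochondrially encoded genes were left out and 0.07 after quantile normalization, and the share of calls that were higher in PANC-1 went from 74.4% to 61.7% and 53.8%. Relative to that shift ESRP2 lay close to the median gene. ZEB1 stayed between 0.50 and 1.11 and VIM between 1.75 and 2.18 over all 14 alternative settings, and both were called in each. EPCAM stayed between -6.74 and -6.24, and CDH1 between -3.82 and -3.25.

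**Figure D3:**
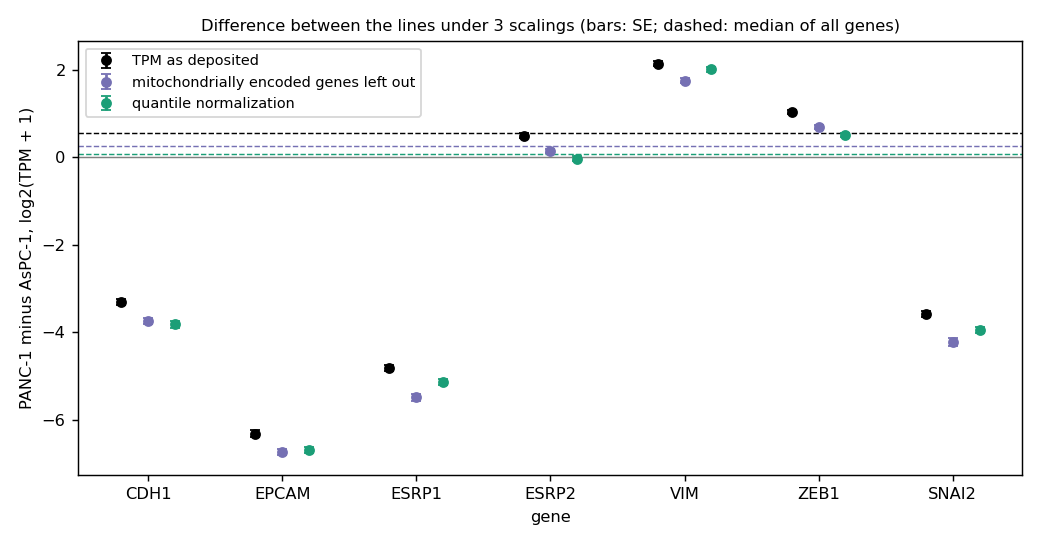
Difference between the lines, PANC-1 minus AsPC-1 on the log2(TPM + 1) scale, for the 7 tested genes found in both lines, under 3 scalings, with bars for the SE and a dashed line for the median of all genes under each. CDH1, EPCAM, ESRP1 and SNAI2 lie below -3 under every scaling, VIM and ZEB1 lie above the dashed lines, and ESRP2 moves from 0.49 to -0.04.

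ESRP2, VIM, ZEB1 and CDH1 share exonic bases with other genes on the opposite strand, and CDH2 and ZEB2 do so with genes listed at 0 in both lines. The exons of VIM share 641 bases with VIM-AS1, which was at 5.87 to 6.97 TPM in AsPC-1 and 3.30 to 4.92 TPM in PANC-1. Those of ZEB1 share 366 bases with ZEB1-AS1, which was at 4.77 to 5.94 TPM in AsPC-1 and 2.45 to 3.30 TPM in PANC-1. ESRP2 shares 149 bases with NFATC3, with means of 7.56 TPM for AsPC-1 and 10.9 TPM for PANC-1. The library kit keeps the strand, but whether the counting used it is not given in the sources used here. Without it, reads of such a pair cannot be told apart. On its own strand ESRP2 shares 74 bases with MIR6773, with means of 4.10 TPM for AsPC-1 and 5.66 TPM for PANC-1. It also shares 35 bases there with AC020978.5, with means of 3.75 TPM and 4.39 TPM. Strand does not separate reads of these overlaps. VIM-AS1 and ZEB1-AS1 were both lower in PANC-1, opposite to VIM and ZEB1. AL133415.1, which shares 619 bases with VIM on the opposite strand, went with VIM, with means of 0.892 TPM for AsPC-1 and 4.38 TPM for PANC-1.

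Differences between treatments were small beside those between the lines. No gene of the 19122 passed the threshold for either compound in either line, so the share called was 0% in each comparison, for the members as for all genes. These tests compared 2 libraries with and 2 without a compound in each line, with 2 residual degrees of freedom. The members are therefore described by their values, and by the unadjusted p against its share over all genes.

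Trametinib in AsPC-1 gave the clearest set of values. Of the 7 members with a p there, which leaves out CDH2 at 0, 5 had an unadjusted p under 0.05, where 14.1% of all genes did. CDH1 differed by 0.32 between libraries with and without trametinib (SE 0.0427, limma adjusted p = 0.271). EPCAM differed by 0.25 (SE 0.0737, limma adjusted p = 0.322) and ESRP1 by 0.24 (SE 0.0634, limma adjusted p = 0.310). VIM differed by -0.18 (SE 0.0385, limma adjusted p = 0.280) and ZEB1 by -0.14 (SE 0.0496, limma adjusted p = 0.351). The count of 5 moved with the settings, while the signs held. The unadjusted limma p was 0.123 for ESRP1 with a pseudocount of 0.1 and 0.0507 for EPCAM after quantile normalization. Without the filter it was 0.0609 for EPCAM and 0.0757 for VIM. For ZEB1 it was 0.0569 with a mean of at least 10 TPM. Without mitochondrially encoded genes it was 0.0595 for ESRP1, and with no trend in the prior variance 0.0639 for ZEB1. CDH1 stayed under 0.05 in each of these settings. Leaving out each AsPC-1 library in turn gave differences of 0.24 to 0.26 for EPCAM, 0.19 to 0.28 for ESRP1 and -0.15 to -0.13 for ZEB1. The same fits gave 0.30 to 0.34 for CDH1 and -0.21 to -0.16 for VIM. They leave 1 library with or 1 without trametinib in AsPC-1, so their p is not given. For these 5 genes both libraries with trametinib lay on the same side of both without it. Their choice by this p made that likely, so it adds nothing to the p. ESRP2 and SNAI2, the other members with a p, overlapped. Of all tested genes, 37.3% did not overlap. The epithelial genes had the positive values and the mesenchymal genes the negative ones, and none passed the threshold. The ratio of EPCAM to VIM in AsPC-1 was 1.54 with vehicle, 1.60 with roseoflavin, 2.03 with trametinib and 2.22 with both. CDH1 to ZEB1 was 6.83, 6.61, 9.78 and 9 in the same order.

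In PANC-1 trametinib gave 2 members with an unadjusted p under 0.05, against 4.81% of all genes. They were CDH1 at 0.18 (SE 0.0427, limma adjusted p = 0.968) and ESRP2 at 0.20 (SE 0.0687, limma adjusted p = 1.00), which was 0.13 without the PANC-1 library of roseoflavin or of both. The difference between the lines in the response to trametinib was tested directly. It was -0.29 for EPCAM (limma adjusted p = 0.514), -0.25 for ESRP1 (0.515), 0.15 for VIM (0.522) and -0.14 for CDH1 (0.552), all as adjusted p. The EPCAM value was -0.16 without the PANC-1 library of vehicle or of trametinib, and -0.42 without that of roseoflavin or of both. No member had an unadjusted limma p under 0.05 there, where 9.70% of all genes did. That count rests on a narrow margin, with 0.0501 for EPCAM, 0.0503 for ESRP1 and 0.0548 for VIM. None was called, so these data do not separate the lines in this response. Over both lines together, CDH1 was the only member with an unadjusted p under 0.05 for trametinib, at 0.25 (SE 0.0749, limma adjusted p = 0.861), against 4.91% of all genes.

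With roseoflavin CDH1 had opposite signs in the 2 lines. In AsPC-1 the difference for CDH1 was -0.16 (SE 0.0427, limma adjusted p = 0.393), and in PANC-1 it was 0.15 (SE 0.0427, limma adjusted p = 0.425). The test of this difference between lines gave 0.31 (SE 0.0604, unadjusted p = 0.00752, limma adjusted p = 0.337), which did not pass. VIM gave 0.20 in the same test (SE 0.0545, limma adjusted p = 0.379), a value whose sign turned to -0.10 after quantile normalization. These 2 of 8 members had an unadjusted p under 0.05, where 11.6% of all genes did. ESRP1 had negative values in both lines, -0.20 in AsPC-1 (limma adjusted p = 0.418) and -0.24 in PANC-1 (limma adjusted p = 0.406). Over both lines together it differed by -0.22 (SE 0.0679, limma adjusted p = 0.659). In PANC-1 ESRP1 is below 1 TPM, where log2(TPM + 1) understates a change: with a pseudocount of 0.1 the PANC-1 value was -0.78 (limma adjusted p = 0.35). VIM in AsPC-1 was at -0.12 with roseoflavin (limma adjusted p = 0.417), or -0.08 after quantile normalization. The members with an unadjusted p under 0.05 were thus 3 of 7 in AsPC-1, without CDH2, and 2 of 8 in PANC-1, against 11.3% and 10.8% of all genes, and over both lines 1 of 8 against 7.10%.

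The combination was also compared with the sum of the compounds. No member had an unadjusted p under 0.05 for the interaction, against 2.80% of all genes, and no gene was called. Within a line the highest library was 1.40 times the lowest for CDH1 in AsPC-1 and 1.31 times in PANC-1, while the median over all genes was 1.21 and 1.15 times. EPCAM, with 1.21 and 1.16 times, was close to the median gene in both lines. VIM and ZEB1 in PANC-1, with 1.08 and 1.11 times, varied less than the median gene.

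**Figure D4:**
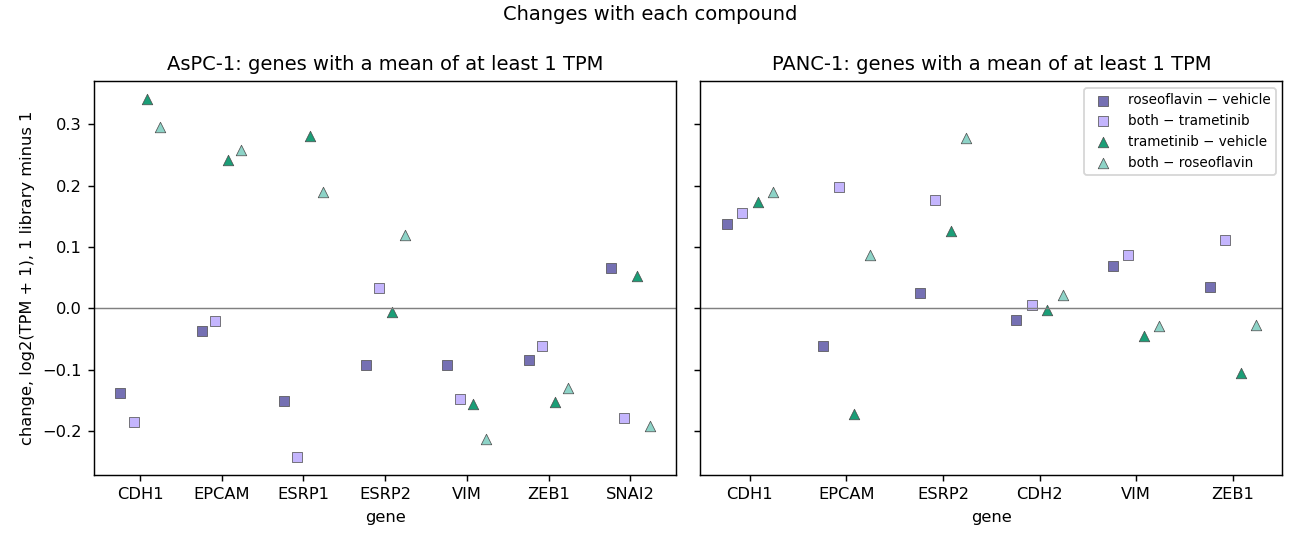
Change in log2(TPM + 1) from 1 library to another for genes that averaged 1 TPM or more in the line, roseoflavin as squares and trametinib as triangles, each alone (dark) and on top of the other compound (light). In AsPC-1 both trametinib points are above 0 for CDH1, EPCAM and ESRP1 and below 0 for VIM and ZEB1, and the roseoflavin points for CDH1 are below 0 in AsPC-1 and above 0 in PANC-1.

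Other genes of the same programmes were read from lists whose named members are the first 3 that averaged 1 TPM or more. Of 10 other transcription factors of the transition, 5 could be tested and all 5 were called higher in PANC-1, with a median of 2.50. Of all genes 62.3% were called higher, and their median was 0.55. After quantile normalization, and without mitochondrially encoded genes, 4 of the 5 were called higher. Under these scalings 15268 and 15379 genes were called, 53.8% and 61.7% of them higher. SNAI1, TWIST2 and FOXC2 passed the filter only through PANC-1, so 3 of the 5 had to differ. TWIST2 was at 0 to 0.053 TPM in AsPC-1 and 4.28 to 5.45 TPM in PANC-1. SOX4 was at 29.5 to 30.7 TPM in AsPC-1 and 133 to 147 TPM in PANC-1, and SNAI1 is given above. TWIST1, PRRX1, SNAI3, TCF4 and GSC stayed below 1 TPM in both lines. FOXC2, named after its value was seen, was listed at 0 in AsPC-1 and was at 42.4 to 48.2 TPM in PANC-1.

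Epithelial transcription factors were mostly lower in PANC-1. Of 14 listed, 12 could be tested, 8 were called lower and 3 higher, against 21.5% and 62.3% of all genes, and the median was -2.61. Of the 12, 6 passed the filter through 1 line only, 4 of them through AsPC-1. ELF3, an epithelial ETS factor, was at 187 to 269 TPM in AsPC-1 and 5.76 to 7.32 TPM in PANC-1. OVOL1 was at 3.49 to 4.78 TPM in AsPC-1 and 0.088 to 0.273 TPM in PANC-1. OVOL2, a repressor of ZEB1 in the textbook circuit, was at 13.4 to 15.3 TPM in AsPC-1 and 11 to 13.7 TPM in PANC-1. It did not pass (-0.16, limma adjusted p = 0.0533), but this depends on the scaling. After quantile normalization, and without mitochondrially encoded genes, all 12 tested factors were called, OVOL2 among them, 9 lower and 3 higher. Of all calls, 53.8% and 61.7% were higher under these scalings. GRHL2, the factor most often placed opposite ZEB1, was at most 0.036 TPM in either line; it was named after its value was seen. FOXA2, also named after its value was seen, went against the list with 0 to 0.073 TPM in AsPC-1 and 41.4 to 51.8 TPM in PANC-1.

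Of 27 genes of epithelial adhesion and polarity, 25 were tested, 19 were called lower and 6 higher in PANC-1, against 21.5% and 62.3% of all genes, with a median of -0.90. Of the 25, 5 passed the filter through 1 line only. The tight junction gene CLDN7 was at 194 to 228 TPM in AsPC-1 and 83.4 to 108 TPM in PANC-1. DSP, which encodes the desmosomal protein desmoplakin, was at 64.3 to 80.0 TPM in AsPC-1 and 15.6 to 16.9 TPM in PANC-1. CDH3, which encodes P-cadherin, was at 4.04 to 4.39 TPM in AsPC-1 and 2.32 to 3.27 TPM in PANC-1. In this list 10 of 25 genes had an unadjusted p under 0.05 for trametinib in AsPC-1, all 10 with positive values, where 14.1% of all genes did and 9.42% did with positive values, and the list's median was 0.14 where that of all genes was 0.02. None of them was called. In PANC-1 none of the 25 had an unadjusted p under 0.05 for trametinib.

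Of 25 listed genes of mesenchymal matrix and motility, 22 were tested. In PANC-1 16 were called higher and 4 lower, with a median of 2.31. Of all genes 62.3% were called higher and 21.5% lower. Of the 22, 6 passed the filter only through PANC-1 and had to differ. The matrix genes SPARC and TGFBI were at 0 to 0.047 TPM and 42.7 to 46.8 TPM in AsPC-1 and at 482 to 575 TPM and 350 to 381 TPM in PANC-1. S100A4, named after its value was seen, went the other way with 3624 to 4071 TPM in AsPC-1 and 467 to 521 TPM in PANC-1. Genes of TGF-beta signalling, an inducer of the transition, were higher in PANC-1 for 18 of 22 and lower for 4. Their median was 1.18, and the shares of all genes were the same 62.3% and 21.5%. After quantile normalization 14 were higher and 4 lower, with a median of 0.67, where 53.8% of all calls were higher. The ligand gene TGFB1 was at 30.7 to 37.4 TPM in AsPC-1 and 79.8 to 82.4 TPM in PANC-1, and TGFB2 at 1.06 to 1.75 TPM and 25.5 to 31.9 TPM. The receptor gene TGFBR1 was at 4.93 to 6.77 TPM in AsPC-1 and 18.1 to 18.7 TPM in PANC-1.

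The list of fibronectin and cadherin partners, which also holds cadherins and protocadherins, was split. Of 8 tested genes, 5 were higher and 3 lower in PANC-1, against 62.3% and 21.5% of all genes. The median was 0.36, below the 0.55 of all genes. Its integrins were all higher, and the 3 lower genes, named after their values were seen, were CDH17, PCDH1 and PCDH7. Under quantile normalization 3 were higher and 4 lower, with a median of -0.09, where 53.8% of all calls were higher and the median of all genes was 0.07. ITGA5, the alpha chain of the fibronectin receptor, was at 0.740 to 1.5 TPM in AsPC-1 and 44.0 to 50.2 TPM in PANC-1, although FN1 itself was below 1 TPM in both. ITGB1, its beta chain, was at 149 to 162 TPM and 189 to 206 TPM, and ITGAV at 18.9 to 23.7 TPM and 70.6 to 73.4 TPM. Of the 12 listed splicing partners of the ESRP proteins, 9 were higher in PANC-1 and 3 lower, again against 62.3% and 21.5%. Their median was 0.43. The list holds splicing regulators and also FGFR2 and ENAH, which are not regulators. In each of these last 2 lists, 2 genes passed the filter through 1 line only. The lean of the splicing list is lost with the scaling. After quantile normalization 4 were higher and 4 lower, and without mitochondrially encoded genes 5 and 4. Of all calls, 53.8% and 61.7% were higher under these scalings. RBFOX2 was at 13.9 to 15.9 TPM in AsPC-1 and 41.2 to 42.8 TPM in PANC-1. QKI, linked to mesenchymal splicing, was at 5.07 to 6.23 TPM and 28.9 to 30.9 TPM, and PTBP1 at 119 to 129 TPM and 131 to 145 TPM. The medians of the other 5 lists kept their sign under both scalings. No gene of any of the 7 lists was called for a compound.

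**Figure D5:**
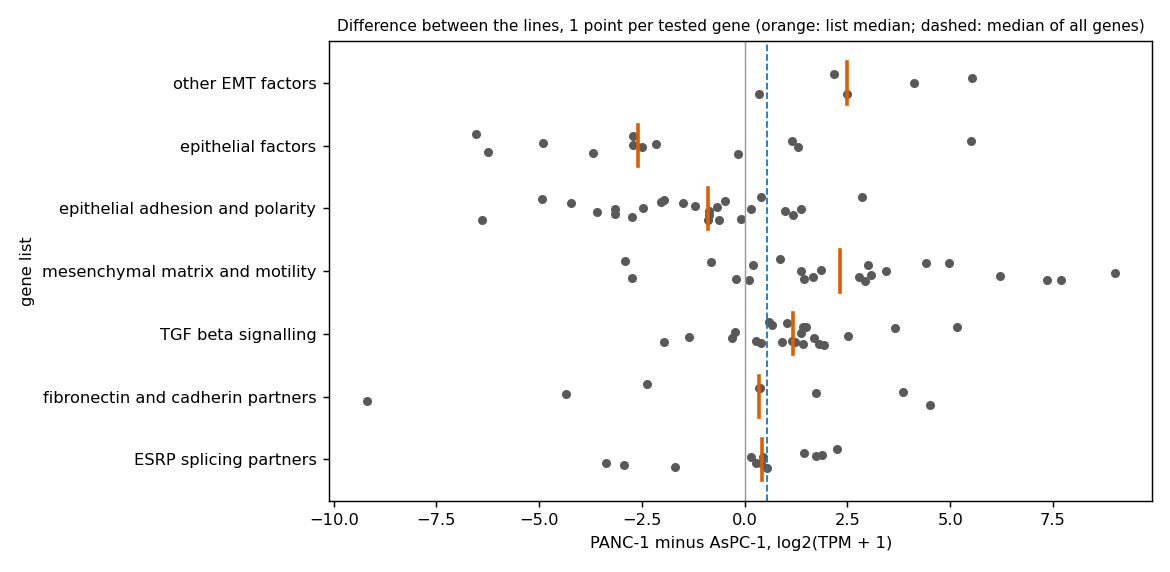
Difference between the lines, PANC-1 minus AsPC-1 on the log2(TPM + 1) scale, with 1 point per tested gene of each of 7 lists, the list median as an orange bar and the median of all genes as a dashed line. The medians of the epithelial factors and of epithelial adhesion and polarity lie below 0, at -2.61 and -0.90, and each list holds genes on both sides of 0 except the other factors of the transition, whose 5 genes all lie above it.

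The genes most like ESRP1 and ZEB1 over the 8 libraries were named by the highest Pearson r of log2(TPM + 1) among 11173 named genes that averaged 5 TPM or more. For ESRP1 they were DSC2, which encodes the desmosomal cadherin desmocollin 2, FZD5 and IL18, with r of 0.9998, 0.9998 and 0.9997. DSC2 was at 29.8, 29, 35.7 and 31.6 TPM in AsPC-1 with vehicle, roseoflavin, trametinib and both, and at 3.65 to 4.16 TPM in PANC-1. For ZEB1 they were LONP1, SAP30 and TPTEP2-CSNK1E, each with r of 0.998. The libraries fall into 2 lines, so any gene that differs between them scores high: 1606 genes had an r above 0.95 with ESRP1 and 5504 with ZEB1.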

How the data were processed

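RNA from 8 libraries, 4 treatments in each of AsPC-1 and PANC-1, was prepared with a stranded kit for polyadenylated RNA, per the labels' protocols. The authors deposited 1 table of TPM per gene, and the columns are in TPM per the file headers. STAR 2.7.3a, HTSeq 2.0.2 and hg38 are named in the submitters' processing notes. How TPM were computed is not given in the sources used here. The table held 62649 genes and 985926 blank rows, which were dropped. Each library summed to 1000000 TPM, so depth is unknown.

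Groups came from the labels. The 19122 genes that reached 1 TPM in no fewer than 2 libraries were fitted as log2(TPM + 1), a scale that understates changes of low genes, with limma 3.58.1 in R 4.3.3, a prior variance that follows the mean level, and Benjamini-Hochberg adjustment over all genes at 0.05. Differences between the lines came from an additive model (line, roseoflavin and trametinib, 4 residual degrees of freedom), compound effects per line from a nested model (2 degrees), and the interaction from an added term (3 degrees). The code was tested on simulated data.

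The 10 genes and the lists were chosen with earlier results of these data known. Named genes are these 10, the first 3 of each list that averaged 1 TPM or more, and the 3 most like ESRP1 and ZEB1; a gene that the rule names is not reported here. Fitted values for a compound are given only for members with an unadjusted p under 0.05 there, or, for a difference between lines, in either line, a rule set after the values were seen. Gene positions and 3′ untranslated regions are from GENCODE 29, with the transcript of each gene that has the longest 3′ untranslated region, and microRNAs and promoters from RefSeq. Alternatives were a pseudocount of 0.1, no filter, a mean of at least 10 TPM, quantile normalization, leaving out mitochondrially encoded genes, no trend, no block for the line and leaving out each library.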

Additional observations from a re-analysis of the deposited data

How the results depend on the processing

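With 1 library per group there is no replicate, and p-values rest on the spread that is left after the model; TPM carry no depth, so low values such as ESRP1 in PANC-1 have no counting error. The 8 tested members stayed called between the lines under each alternative that could test them, except ESRP2, which gave 0.14 without mitochondrially encoded genes and -0.0392 after quantile normalization; the number of members called was 6 to 9. Genes called between the lines were 8388 with a mean of at least 10 TPM, where fewer genes are tested. Members called for a compound were 0 under every alternative. Without the filter, genes called went from 0 to 42 for roseoflavin in AsPC-1, 2 for roseoflavin in PANC-1, 45 for trametinib in AsPC-1, 155 for trametinib in PANC-1, 27 and 106 for the differences between lines in the responses to roseoflavin and trametinib, and 14 for the interaction; the cause was not tested. The difference between lines in the response to roseoflavin turned to -0.104 for VIM after quantile normalization. For ESRP1 it was -0.0427, with a pseudocount of 0.1 it was -0.575 (unadjusted p = 0.0321, limma adjusted p = 0.403), and leaving out each library in turn gave -0.0889 to 0.00352, with 0.0025 without the AsPC-1 library of vehicle or of roseoflavin, and 0.00352 without the PANC-1 library of trametinib or of both; the cause was not tested. No paired analysis was possible because no group holds numbered replicates; the line and the other compound are terms of the models above.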

Other observations

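Some genes of the epithelial lists did not follow EPCAM and CDH1, and others did; the genes given here were picked after their values were seen. RAB25, a GTPase of epithelial trafficking, was at 0.293 to 0.951 TPM in AsPC-1 and at 0 in all PANC-1 libraries. MAL2 was at 0.032 to 0.230 TPM in AsPC-1 and 1.00 to 1.42 TPM in PANC-1, against the direction of its list. PPL, which encodes the desmosomal plakin periplakin, was also higher in PANC-1, at 57.0 to 64.5 TPM against 6.08 to 9.28 TPM. The serine protease genes ST14 and PRSS8 followed EPCAM, at 180 to 240 TPM and 15.4 to 21.3 TPM in AsPC-1 and at 1.33 to 1.76 TPM and 0 to 0.139 TPM in PANC-1. RBM47, an epithelial splicing regulator, was at 22.2 to 29.1 TPM in AsPC-1 and 1.09 to 2.01 TPM in PANC-1, and MBNL3 at 5.87 to 7.21 TPM and at most 0.011 TPM.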
